A study of Mus musculus with 8 samples.

Results

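The comparison described here set mouse liver that had lost the receptor MET and received an inhibitor of EGFR against control liver at day 0, before the response to the mitogen TCPOBOP. It was chosen by the day in the sample labels and holds 2 of the 8 arrays of the study, 1 for each arm, with all 45037 probe sets that are not controls. Mice of both arms carried a floxed Met gene on both alleles together with a tamoxifen-activated Cre (written ERCre+/+ or TamCre+/+ in the labels). The MET KO + EGFRi arm received 5 daily intraperitoneal injections of tamoxifen (100 µl at 10 mg/ml in corn oil), which switched Cre on, and then a diet with the EGFR inhibitor canertinib aimed at 80 mg/kg per day. The control arm was littermates injected with corn oil alone. TCPOBOP was given by gavage at 3 mg/kg at least 5 days after the last injection, the canertinib diet began 1 day before it, and livers were taken on days 0, 1, 2 and 5.

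Tamoxifen with active Cre, loss of Met and the canertinib diet were all present in 1 arm and absent from the other, so their parts in any difference below cannot be told apart. RNA from several livers was pooled for each array, with 6 µg of total RNA labelled. The promoter that drives Cre, the deleted part of Met, the number, sex and age of the mice in a pool, the diet of the controls and whether the day 0 mice had been given TCPOBOP are not given in the labels.

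MET is the receptor of hepatocyte growth factor, and EGFR is the receptor of epidermal growth factor and its relatives. Both are receptor tyrosine kinases of hepatocytes that signal through ERK and AKT and are known for their role in liver regeneration. Liver also makes most plasma proteins, stores and makes fat, and answers interleukin-6 with the acute phase response, in which STAT3 and C/EBP factors switch on secreted defence proteins.

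Values are MAS5 signals, a linear brightness scale on which the authors gave every array the same trimmed mean. Differences are log2(signal + 71) in MET KO + EGFRi minus the same in control, where 71 is the lower quartile of all signals, so that differences of weak genes are understated. Each gene is represented by the brightest of its probe sets on average, and the 12112 genes whose mean log2 signal reached the median of all probe sets were kept. The median signal of the arrays was 224 to 251 (250.6 and 239.3 at day 0), and the ratio of 3' to 5' actin probe sets was 1.58 and 1.77 in the day 0 arrays against 1.57 to 2.36 over all 8. Precision is limited by the number of arrays.

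The targeted gene Met had a signal of 1444.3 in the control array and 1502.2 in the MET KO + EGFRi array, within the 926 to 2033.7 of the other 6 arrays. Its other probe set had 786.2 and 639.5. Because the deleted part of Met is not known here, these probe sets do not check the deletion. Canertinib acts on the protein and leaves no direct mark in RNA. Cyp2b10, the best known target of TCPOBOP's receptor CAR, had 444 and 356.4 in the day 0 arrays against at least 32026.9 in each array of the later days. The 12 hepatocyte markers, among them albumin (Alb, difference 0.06), had differences of -0.28 to 0.78 with a median of -0.01, so that the label of the tissue holds in both arrays.

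At day 0, 320 of 12112 genes (2.64% of those tested) had a signal at least 2-fold higher in MET KO + EGFRi than in control, and 264 (2.18%) had one at least 2-fold lower. Together these were 584 genes (4.82%). Over all 45037 probe sets, 1379 (3.06%) and 1411 (3.13%) were past 2-fold, and over those at or above the median mean signal 618 (2.74%) and 492 (2.18%). At 4-fold or more there were 47 higher (0.388%) and 25 lower (0.206%). The median difference over all genes was -0.03 and the median absolute difference 0.25, close to the 0.25, 0.27 and 0.25 between the arms on days 1, 2 and 5. With 1 pooled array per arm these folds have no replicate check. In pooled tissue, fewer cells of a type and less RNA per cell cannot be told apart.

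**Figure D1:**
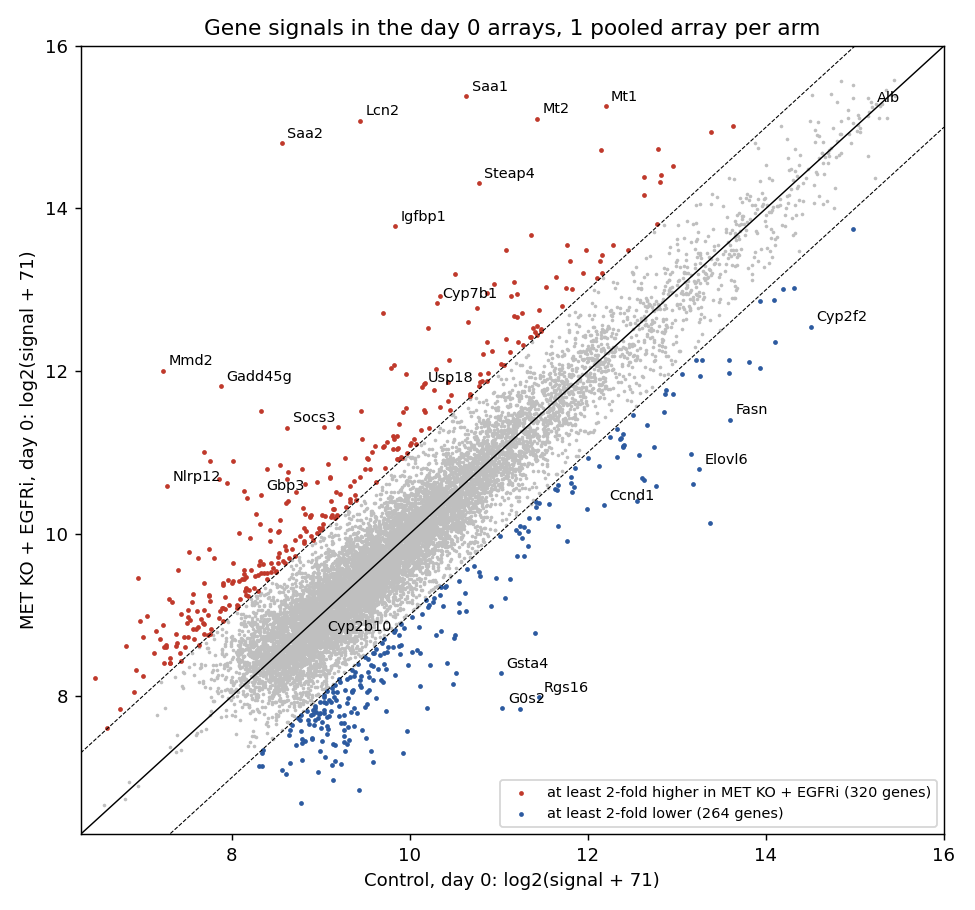
Signal of each of 12112 genes in the control array (horizontal axis) and the MET KO + EGFRi array (vertical axis) of day 0, as log2(signal + 71), with dashed lines at 2-fold. The 320 genes at least 2-fold higher (red) reach farther from the diagonal than the 264 at least 2-fold lower (blue), with Saa2 (difference 6.25) and Lcn2 (5.64) the farthest above it and Rgs16 (-3.46) the farthest of the labelled genes below.

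For an error, limma fitted day, arm and the interaction of arm with TCPOBOP over all 8 arrays, which takes the spread of the day 0 difference from how the arms differ among days 1, 2 and 5 and assumes that the day 0 pools vary alike. It called 2 genes higher (0.0165%) and 0 lower (0%) at an adjusted p under 0.05, while 428 higher (3.53%) and 396 lower (3.27%) had an unadjusted p under 0.05. Mmd2, a membrane protein of the progestin and adipoQ receptor family, rose from 79.1 to 4031.3, a difference of 4.77 with a standard error of 0.31 (limma adjusted p = 0.0149). A second kept probe set of Mmd2 went from 12.3 to 3513.7, and a weak one below the filter from 77.8 to 103.5. Nlrp12, a NOD-like receptor known to restrain inflammatory signalling, rose from 83.2 to 1464.2 (difference 3.32, standard error 0.28, limma adjusted p = 0.0401).

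Both genes were lost without the arrays of day 2 (limma adjusted p = 0.0551 for Mmd2 and 0.0946 for Nlrp12). Calls numbered 10 higher and 2 lower without day 1, and 27 and 10 without day 5. The next 9 genes all had a limma adjusted p of 0.116. They included G0s2, the protein inhibitor of the fat-splitting lipase ATGL, at 2034.1 in the control array and 159.5 in the MET KO + EGFRi array (difference -3.19, standard error 0.36). The neutrophil protease Prtn3 had 144 and 1825.6 (3.14), the actin-nucleating formin Inf2 1109.7 and 5861 (2.33), and the adenylosuccinate synthetase Adssl1 161.1 and 1560.3 (2.81). The cystine transporter subunit Slc3a1 had 1533.1 and 6175 (1.96).

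Acute phase genes held 3 of the 4 largest increases. Saa2, a serum amyloid A apolipoprotein of the acute phase, had a signal of 305.7 in the control array and 28584.4 in the MET KO + EGFRi array (76.1-fold). Lcn2, which binds bacterial iron carriers, had 622.4 and 34565.3 (50-fold), and Saa1 had 1515.6 and 42622.6 (26.9-fold). The probe set of Saa2 can bind related RNAs, so the share of Saa1 in it is not known. None of these 3 passed the limma test (adjusted p = 0.485, 0.14 and 0.224), whose error includes how the arm difference varied over the later days, 6.04, 7.98 and 1.57 for Saa2 on days 1, 2 and 5. MET KO + EGFRi was the higher arm on all 4 days for each of them.

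The 15 largest increases also included genes of cytokine signalling. Il17ra, the receptor of interleukin-17A, had 248.9 and 2851.9 (difference 3.19, and 3.20 in its other probe set), and Tifa, an adaptor on the way to NF-kB, had 756.4 and 6667.3 (3.03). The metalloreductase Steap4 had 1680.2 and 20292.4 (3.54). The stress gene Gadd45g had 164.5 and 3532 (3.94). The galactosyltransferase B3galt1 had 134.2 and 1980.8 (3.32), with all 5 of its probe sets higher, and the magnesium carrier Slc41a2 had 187.1 and 1826.2 (2.88). One gene, the acyl-CoA synthetase Acsl6, went from below the lower quartile of its array in control (51.7) to above the upper quartile in MET KO + EGFRi (631.6), and 0 genes went the other way. A weak probe set of Acsl6 below the filter was lower in MET KO + EGFRi, with 170.1 and 63.8 (-0.84).

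The largest decreases were of mixed function. Rgs16, a regulator of G protein signalling whose RNA cycles with the day, had 2719.3 in the control array and 182.3 in the MET KO + EGFRi array (difference -3.46). The glutathione transferases Gsta2 and Gsta4 had -3.40 (2348.6 and 157.5) and -2.74 (2008.5 and 240.6). The elongase Elovl6, the fatty acid synthase Fasn and the IGF-binding protein Igfbp2 had -2.46, -2.20 and -2.57. The potassium channel Kcnk5 had -2.24 (1398.4 and 240.7) and the methyltransferase Setd4 -2.39 (931.4 and 119.6), with its other 2 probe sets at -1.82 and -1.35.

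Some decreases rested on 1 probe set. Phgdh, the first enzyme of serine synthesis, had -2.63 in its brightest probe set (2640.9 and 368.6) and 0.05 in the other kept one. Rab3a, a small GTPase of vesicle release, had -3.24 (10517.8 and 1046.8), while a weak probe set below the filter had 1.74. Rgs3, another regulator of G protein signalling, had -2.33 (1356.3 and 212.2) and -0.12. The zinc finger factor Maz (687.1 and 89.5), the Dicer partner Tarbp2 (695.4 and 74.7) and Fam102a (1095.6 and 160.2) also lay among the 15. Probe sets below the filter were lower too for Fam102a (449.3 and 147.9, -1.25) and for Tarbp2 (36.8 and 11.1, -0.39). Over all genes with 2 or more kept probe sets, the probe sets of 1 gene all differed the same way in 2259 of 4377 (51.6%), and in 76.7% of the 176 whose brightest one differed at least 2-fold.

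**Figure D2:**
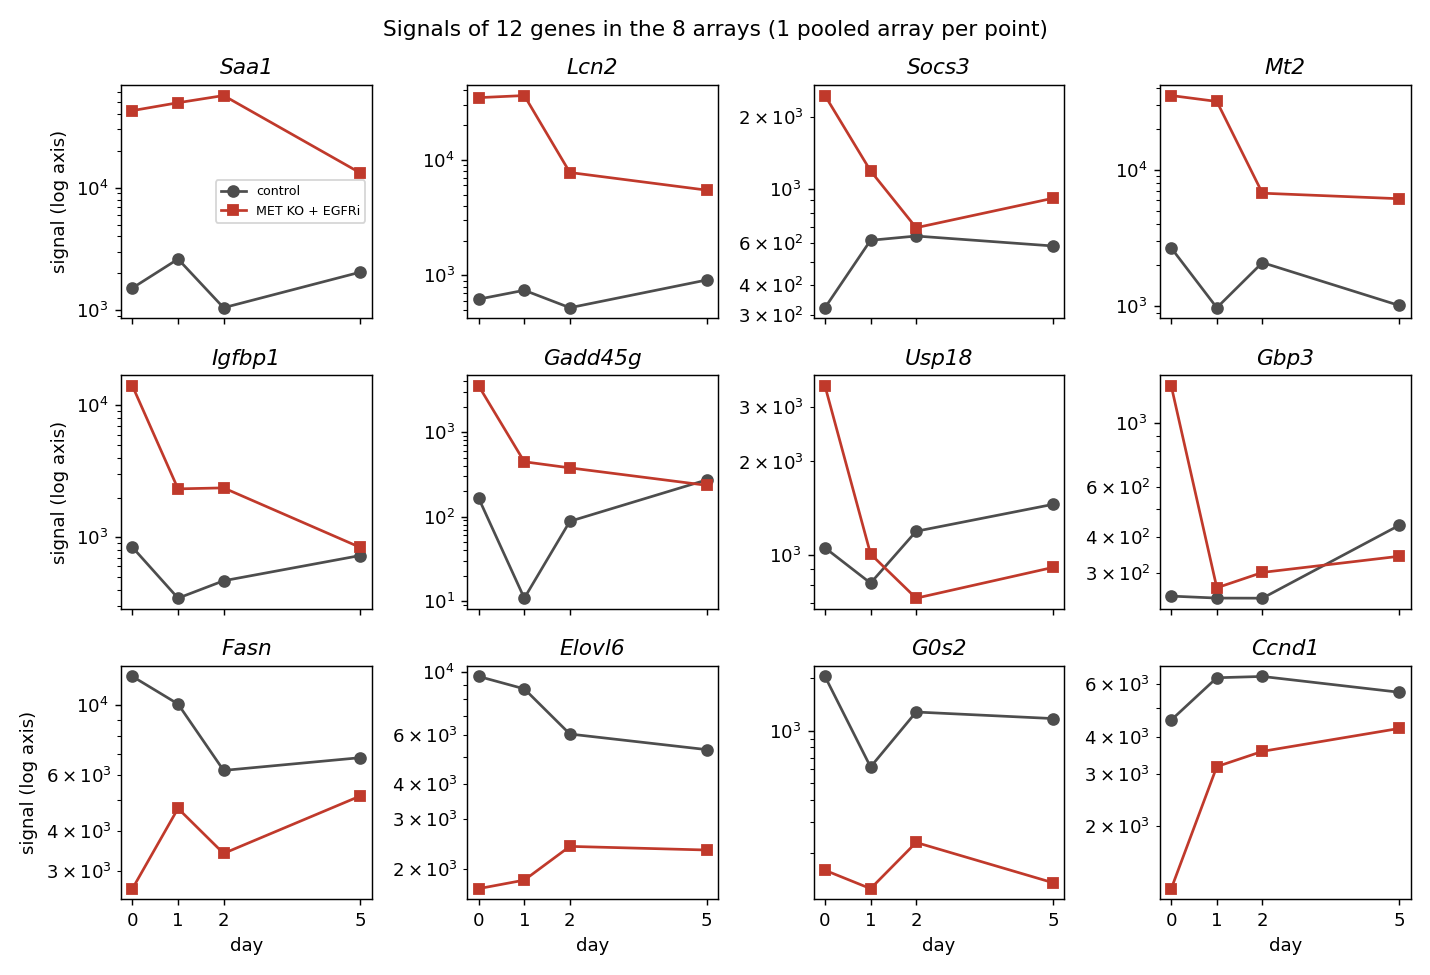
Signals of 12 genes in the 8 arrays by day (log axes), 1 pooled array per point, control in grey circles and MET KO + EGFRi in red squares. At day 0 the arms were widest apart for Socs3, Igfbp1, Usp18, Gbp3, Fasn and Ccnd1 and drew closer later. Those of Gadd45g were widest apart on day 1 (10.8 in control and 446.7 in MET KO + EGFRi), as signals are drawn without the added 71. Saa1, Lcn2, Mt2 and G0s2 stayed apart on every day.

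All 25 measured acute phase proteins were higher in MET KO + EGFRi at day 0, with a median difference of 1.38 against -0.03 over all genes, and 13 of them were at least 2-fold higher (2.64% over all genes). limma called 0 of them, and 14 had an unadjusted p under 0.05 (3.53% over all genes). Over all genes 46.8% were higher and 53.2% lower by any amount, and the list counts below stand beside these shares. The protease inhibitor Serpina3n had 4460 and 26828.4 (difference 2.57), the lipid-binding orosomucoid Orm2 1223.1 and 7720.2 (2.59), and Saa3, made by macrophages as well as hepatocytes, 1388.3 and 9260.5 (2.68). At the other end Hpx, the plasma haem scavenger, had 36957.1 and 40501.9 (0.13). The summed signal of the list was 320878 in the control array and 703902 in the MET KO + EGFRi array. Secreted hepatocyte proteins outside the acute phase, 19 measured, had a median of 0.06 and 0 members past 2-fold (4.82% over all genes).

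Genes of the interleukin-6, STAT3 and C/EBP pathway stood higher as well, in 20 of 23 cases (46.8% over all genes), with a median of 0.70 and 11 at least 2-fold higher (2.64%). Socs3, the feedback inhibitor that STAT3 induces, had 322.4 in the control array and 2454.4 in the MET KO + EGFRi array (difference 2.68, limma adjusted p = 0.116), and its other 2 probe sets had 2.94 and 3.30. The transcription factors Junb (264.1 and 1710.8, 2.41), Cebpd (323.9 and 1280.1, 1.77), Bcl3 (1071.6 and 3597, 1.68) and Stat3 itself (2373.5 and 6669, 1.46) followed, as did Lifr, a receptor of the same cytokine family (3110.6 and 9078.9, 1.52). In 10 of the 23 the MET KO + EGFRi array of day 0 was the highest of all 8 (12.5% over all genes). The list's median on days 1, 2 and 5 was 0.35, 0.29 and 0.25.

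The promoter of Saa1 is shown because its gene was among the largest increases and interleukin-6 acts on such genes through STAT3 (RefSeq, GRCm38.p6, chr7:46742931-46743230, minus strand, 250 bases before to 50 after the start). It held 0 matches on either strand to the STAT motif, which is TTC, any 3 bases, GAA, so that it has no capitals, and 8.3% of 32851 such windows hold a match. Of 21 acute phase genes with a promoter 7 held one, 2 of the 11 at least 2-fold higher (Apcs and Steap4) and 5 of the 10 others. Of 20 genes of the interleukin-6 pathway with a promoter 2 held one, Cish and Socs3, both at least 2-fold higher.
Saa1: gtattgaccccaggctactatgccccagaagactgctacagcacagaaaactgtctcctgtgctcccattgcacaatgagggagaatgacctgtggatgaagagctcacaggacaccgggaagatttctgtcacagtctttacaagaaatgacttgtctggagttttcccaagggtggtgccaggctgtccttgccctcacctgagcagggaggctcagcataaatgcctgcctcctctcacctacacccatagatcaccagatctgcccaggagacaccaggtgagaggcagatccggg

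The neutrophil genes S100a8 (454.2 and 2468.3, difference 2.27) and S100a9 (321.4 and 1564.3, 2.06), with Prtn3, were the 3 of 11 monocyte and neutrophil markers at least 2-fold higher (2.64% over all genes). The list had a median of 0.36 and summed signals of 5756 (control) and 11135 (MET KO + EGFRi), against 5323 to 5869 and 10287 to 11004 on the later days. The monocyte receptor Ccr2 had 508.1 and 262.7 (-0.80). Of 17 Kupffer cell and macrophage markers 13 were higher and 0 past 2-fold (4.82% over all genes), with a median of 0.17 and a summed signal of 40897 and 49027. The part of these cells in the acute phase and cytokine differences was not tested. Among 10 chemokines the neutrophil attractant Cxcl1 alone passed 2-fold (4.82% over all genes), with 1905.2 and 8512.5 (2.12), and the list's median was -0.06.

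**Figure D3:**
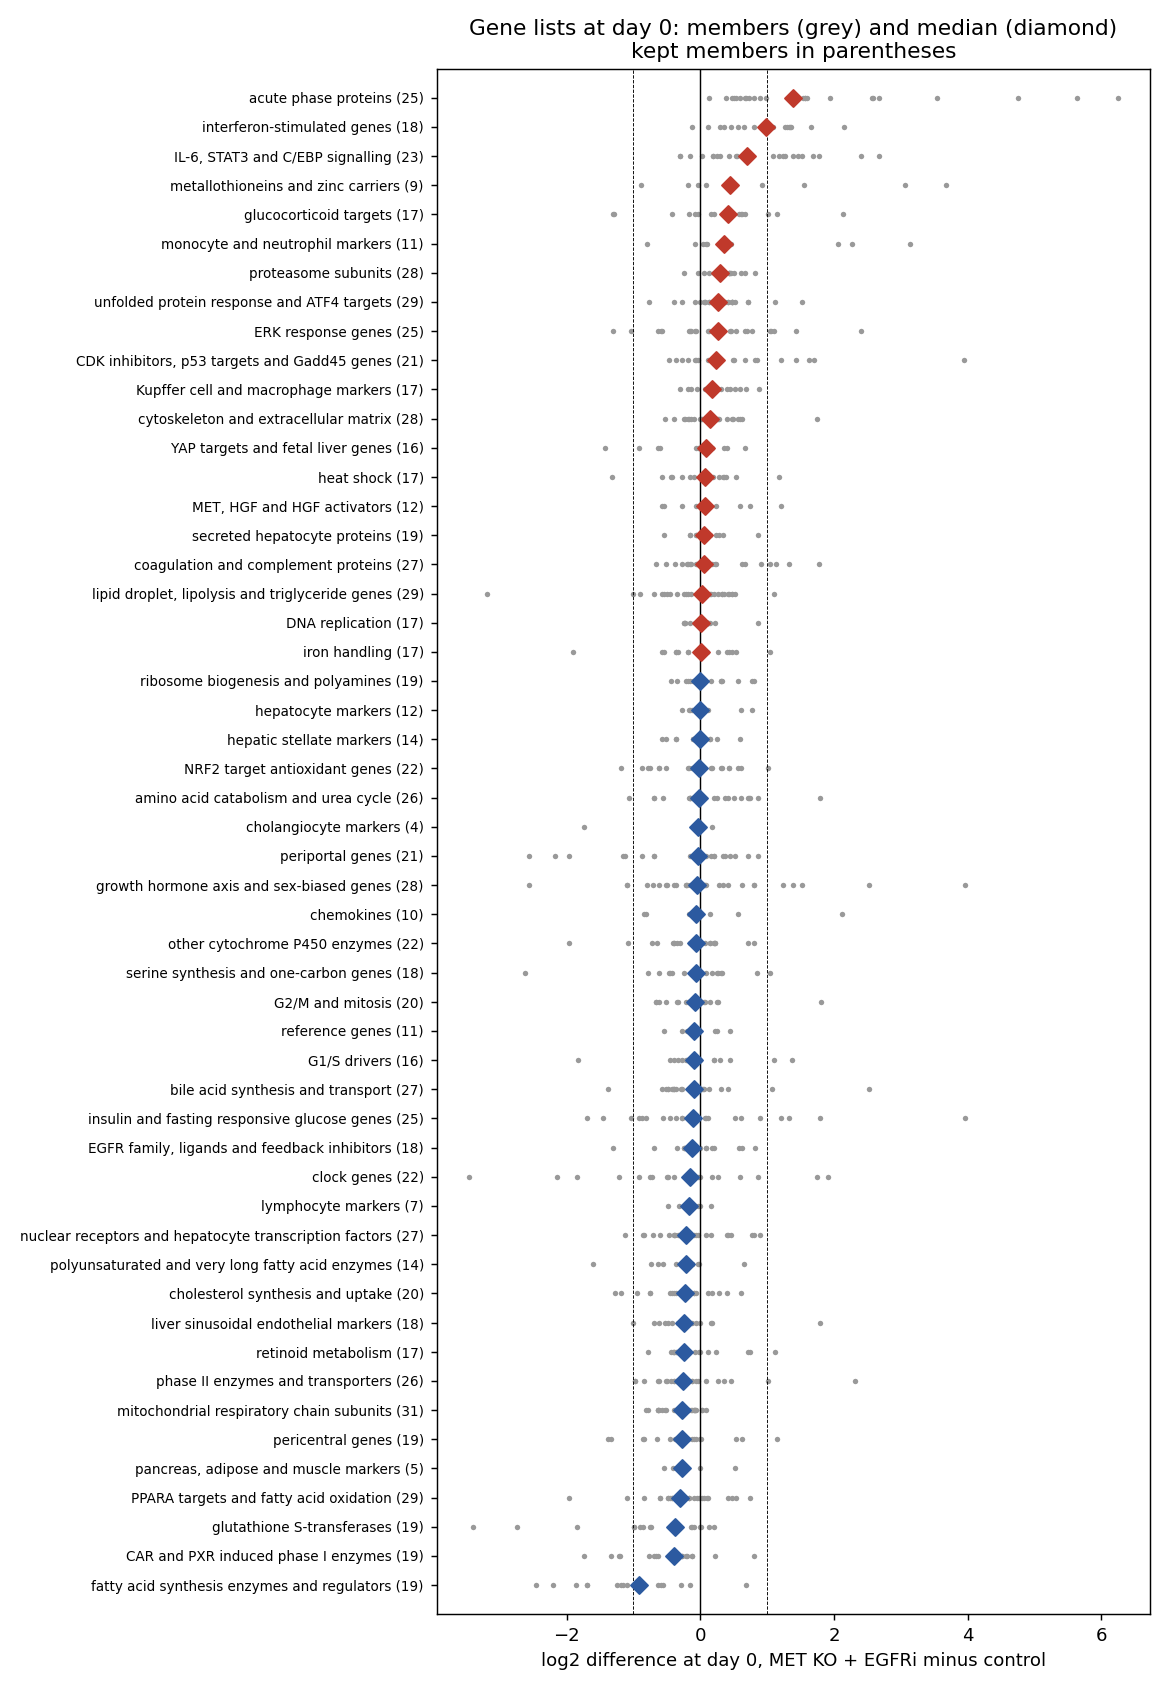
Difference between the arms at day 0 for the kept members (grey) of 52 gene lists with their median (diamond), on the log2(signal + 71) scale, and dashed lines at 2-fold. Acute phase proteins (median 1.38), interferon-stimulated genes (0.99) and interleukin-6 signalling genes (0.70) lie at the top and fatty acid synthesis genes (-0.91) at the bottom, while most medians lie near 0.

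The metallothioneins Mt1 and Mt2, small cysteine-rich proteins that bind zinc and copper, had far higher signals in MET KO + EGFRi. Mt1 had 4631.8 and 39104.1 (difference 3.06, and 2.64 in its other probe set), and Mt2 had 2679.6 and 35171.8 (3.68). The zinc importer Slc39a14, known as a target of interleukin-6, had 3502 and 10367.9 (1.55). The other 6 of 9 measured members ran from -0.88 for the zinc importer Slc39a4 to 0.93. Metallothionein genes are switched on by metals through MTF1 and by glucocorticoids.

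Because both genes were higher, their promoters are shown (RefSeq, GRCm38.p6, plus strand, 250 bases before to 50 after the start), with matches to the core of the metal response element, TGCACNC or TGCGCNC on either strand, in capitals. Mt1 lies at chr8:94178839-94179138 with 3 matches and Mt2 at chr8:94172368-94172667 with 4, and 25.7% of 32851 such windows hold at least 1. Of the other listed metallothionein and zinc carrier genes with a promoter, all under 2-fold higher, 3 of 5 also held a match.
Mt1: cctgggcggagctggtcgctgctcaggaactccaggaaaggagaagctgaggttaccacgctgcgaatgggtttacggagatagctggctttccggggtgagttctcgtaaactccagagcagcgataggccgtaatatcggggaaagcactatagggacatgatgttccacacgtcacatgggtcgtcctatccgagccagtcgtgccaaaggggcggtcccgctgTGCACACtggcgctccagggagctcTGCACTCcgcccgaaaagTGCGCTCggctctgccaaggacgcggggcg
Mt2: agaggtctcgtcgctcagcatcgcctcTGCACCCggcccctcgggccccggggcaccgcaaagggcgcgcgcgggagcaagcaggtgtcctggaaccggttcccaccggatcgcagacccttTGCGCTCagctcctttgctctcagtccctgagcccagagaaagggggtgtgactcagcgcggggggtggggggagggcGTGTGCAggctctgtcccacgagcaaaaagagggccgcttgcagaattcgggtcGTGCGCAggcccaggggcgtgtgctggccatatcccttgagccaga

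Glucocorticoid targets did not share one direction, with 11 of 17 higher and a median of 0.41. Ddit4, an mTOR inhibitor, had 325.2 and 1660.3 (difference 2.13), and the receptor chaperone Fkbp5 had 2595.4 and 5821.4 (1.14). Tsc22d3, also called Gilz, had 3552.3 and 1394.1 (-1.31), and Hsd11b1, which makes active glucocorticoid in liver, had 20255.5 and 8217.9 (-1.29).

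Interferon-stimulated genes were higher in MET KO + EGFRi in 17 of 18 cases (46.8% over all genes), with a median of 0.99 and 9 members at least 2-fold higher (2.64%). The GTPase Gbp3 had a signal of 249 in the control array and 1346.7 in the MET KO + EGFRi array (difference 2.15), Usp18, which removes the ubiquitin-like ISG15, 1055.2 and 3497.9 (1.66), and the RNA-binding Ifit1 768.4 and 2085.8 (1.36). The regulator Irf7 had 2731.1 and 6847 (1.30), Oasl2 247 and 736.8 (1.34) and Ifi35 2087.2 and 5325 (1.32). In 15 of the 18 the MET KO + EGFRi array of day 0 was the highest of all 8, against 12.5% over all genes. limma called 0 of the 18, and Rtp4, itself known as interferon-induced though outside the list, had 833.8 and 4253.5 (2.26).

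On days 1, 2 and 5 the medians of the same 18 genes were 0.14, 0.01 and -0.30. The difference of day 0 from the mean of the later days was 2.14 for Gbp3 (standard error 0.42), 2.00 for Usp18 (0.44), 1.94 for Ifit1 (0.33) and 2.98 for Rtp4 (0.42). None of these passed limma's test of that difference after adjustment (adjusted p = 0.568, 0.785, 0.568 and 0.568), and over all genes the test called 0 of 12112 (0%), with 543 (4.48%) at an unadjusted p under 0.05.

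The promoters of Ifit1 and Gbp3 are shown as examples (RefSeq, GRCm38.p6, plus strand), with matches to the core of the interferon response element (GAAA, any 2 bases, GAAA, on either strand) in capitals. They lie at chr19:34640639-34640938 and chr3:142559794-142560093, with 2 matches each, which overlap in Gbp3. Gbp3 has another start in the table, whose window at chr3:142560106-142560405 held 0 matches and is not printed. Of 17 listed genes with a promoter sequence, 9 held a match in at least 1 of their windows, 5 of the 8 at least 2-fold higher and 4 of the 9 others, and 3.44% of all windows did. The genes and letters were picked after their values were seen.
Ifit1: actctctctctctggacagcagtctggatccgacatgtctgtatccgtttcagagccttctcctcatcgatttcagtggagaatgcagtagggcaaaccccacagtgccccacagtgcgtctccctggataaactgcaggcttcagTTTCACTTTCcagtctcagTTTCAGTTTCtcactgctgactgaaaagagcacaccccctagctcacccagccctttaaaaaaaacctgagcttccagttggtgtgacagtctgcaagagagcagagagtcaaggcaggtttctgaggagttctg
Gbp3: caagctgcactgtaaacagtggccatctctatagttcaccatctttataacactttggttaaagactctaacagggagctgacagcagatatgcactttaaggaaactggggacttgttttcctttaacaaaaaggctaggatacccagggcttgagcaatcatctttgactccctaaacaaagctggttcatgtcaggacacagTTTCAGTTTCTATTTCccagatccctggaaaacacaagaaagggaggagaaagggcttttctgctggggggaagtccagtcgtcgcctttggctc

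**Figure D4:**
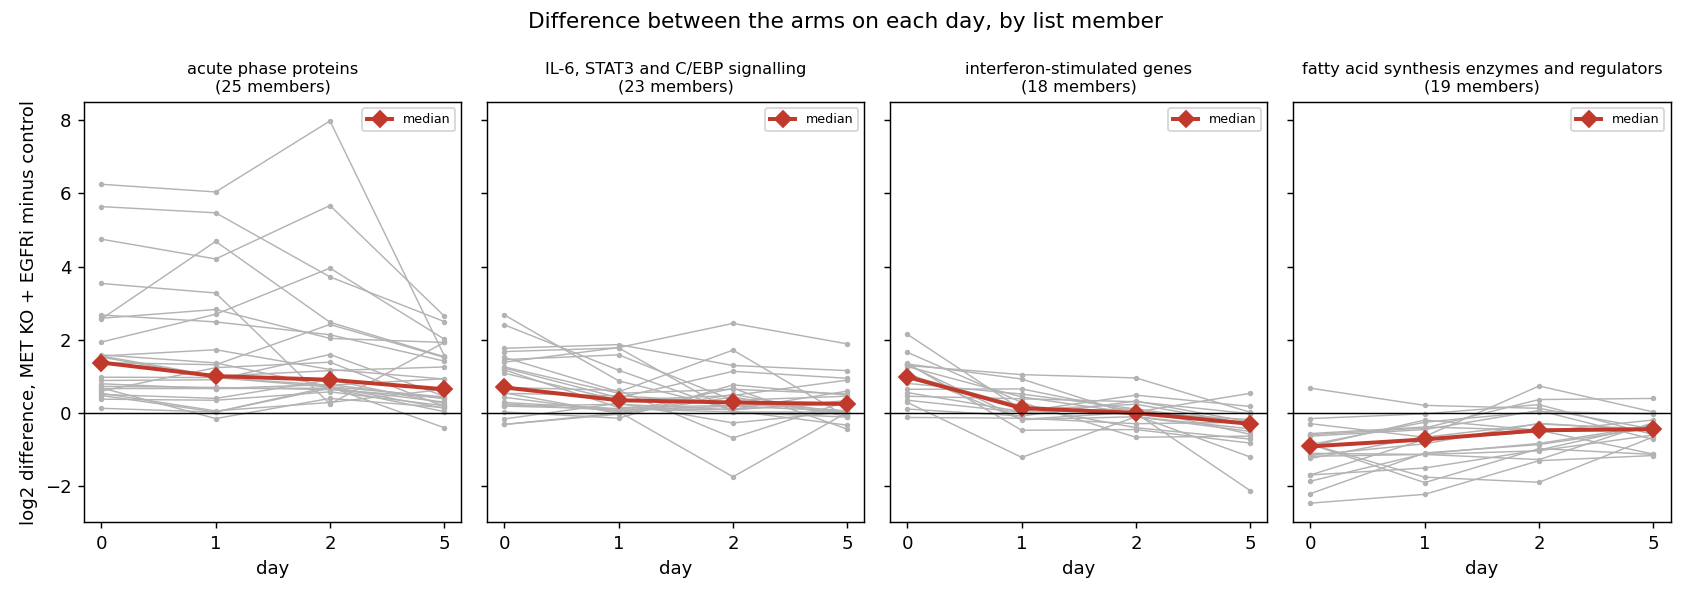
Difference between the arms on each day for the members of 4 gene lists (grey lines), with the list median (red), on the log2(signal + 71) scale. Acute phase proteins had medians of 1.38, 1.01, 0.91 and 0.65 on days 0, 1, 2 and 5, interferon-stimulated genes 0.99, 0.14, 0.01 and -0.30, and fatty acid synthesis genes -0.91, -0.72, -0.47 and -0.44.

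Fatty acid synthesis enzymes and regulators were lower in MET KO + EGFRi in 18 of 19 cases at day 0, with a median of -0.91 and 9 at least 2-fold lower (2.18% over all genes). Elovl6, which lengthens palmitate, had 9662.9 in the control array and 1698 in the MET KO + EGFRi array (difference -2.46), and its other probe sets had -2.70 and -0.88. Fasn had 12335.3 and 2629.2 (-2.20, limma adjusted p = 0.123). The steps that supply carbon were lower too, with Acly, which makes cytosolic acetyl-CoA, at 14252.4 and 4361 (-1.69) and the pyruvate kinase Pklr at 6799.1 and 2062.7 (-1.69). Srebf1, which encodes the transcription factor SREBP-1, had 7897.5 and 3304.4 (-1.24), and Aacs, an acetoacetate-activating enzyme, had 2068.7 and 518.6 (-1.86). Insig2, which holds SREBP back, was the 1 member higher, with 4047.5 and 6521.2 (0.68).

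In 14 of these 19 genes the control array of day 0 was the highest of all 8 arrays (15.2% over all genes), and in 9 the MET KO + EGFRi array of day 0 was the lowest (13.4%). The medians on days 1, 2 and 5 were -0.72, -0.47 and -0.44. limma called 0 of the 19. The desaturase Fads2 had 6030.9 and 1933.3 (-1.61), while the 14 genes of polyunsaturated and very long fatty acids had a median of -0.22.

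Cholesterol synthesis and uptake differed less at day 0, with a median of -0.23, 15 of 20 lower (53.2% over all genes) and 2 at least 2-fold lower (2.18%). Insig1 had 3606.8 and 1447.6 (difference -1.28) and the sterol carrier Stard4 3506.2 and 1510.6 (-1.18), while the demethylase Cyp51 had 1682 and 2596.8 (0.61). On days 1, 2 and 5 the median was -0.66, -1.18 and -0.35. Of 29 PPARA targets and oxidation genes 21 were lower, with a median of -0.30, among them the thioesterase Acot3 at 6269.9 and 1548.2 (-1.97), whereas Ehhadh, an enzyme of peroxisomal oxidation, had 6366.2 and 10705.7 (0.74). Lipid droplet and triglyceride genes had a median of 0.03 over 29, with G0s2 (-3.19) and the acyltransferase Gpat3 (570 and 1302.6, 1.10) at the ends.

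Genes that follow insulin and fasting lay on both sides, with 10 of 25 higher and a median of -0.11. Igfbp1, which binds insulin-like growth factors and is repressed by insulin, had a signal of 838.5 in the control array and 14038.1 in the MET KO + EGFRi array (15.5-fold), the highest of the 8 arrays, whereas on day 5 the arms had 726.4 and 836.4. The transaminase Got1 (3401.1 and 11956.7, 1.79), the glycogen targeting subunit Ppp1r3c (1079.1 and 2804.8, 1.32) and the insulin receptor substrate Irs2 (275.1 and 722.4, 1.20) were higher. Pklr, the glucose carrier Slc2a2 (12201.4 and 4424.4, -1.45) and the glycogen synthase Gys2 (5745.1 and 2750.9, -1.04) were lower. The gluconeogenic enzymes Pck1 and G6pc, also repressed by insulin, had 0.52 and -0.87.

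The Igfbp1 promoter is shown (RefSeq, GRCm38.p6, plus strand, chr11:7197537-7197836) with its 1 match to the insulin response motif CAAAACA or GTAAACA in capitals. A match on either strand was present in 6 of 21 listed genes with a promoter in the table, 2 of the 4 at least 2-fold higher and 4 of the 17 others, and in 9.63% of all windows.
Igfbp1: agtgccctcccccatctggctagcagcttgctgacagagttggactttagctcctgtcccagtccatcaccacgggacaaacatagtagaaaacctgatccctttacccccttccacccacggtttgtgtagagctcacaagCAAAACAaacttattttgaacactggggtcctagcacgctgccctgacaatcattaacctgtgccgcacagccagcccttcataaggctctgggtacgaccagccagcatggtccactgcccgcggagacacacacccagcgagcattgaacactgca

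Of the 4 lists of drug metabolism, 3 had medians of -0.26 to -0.40 and the remaining P450 enzymes one of -0.07. Nr1i3, which encodes CAR, had 3140.6 in the control array and 1408.5 in the MET KO + EGFRi array (difference -1.12). Of 19 phase I enzymes known to follow CAR and PXR, 17 were lower (53.2% over all genes), with a median of -0.40 and 4 at least 2-fold lower (2.18%). Cyp2c29 had 17517.9 and 5194.8 (-1.74), Cyp1a2 9748 and 3845.7 (-1.33), Cyp3a25 17369.2 and 7436.6 (-1.22) and the carboxylesterase Ces2a 5230.1 and 2241 (-1.20), while Cyp3a13 had 4922.4 and 8711.6 (0.81). In 14 of the 19 the MET KO + EGFRi array of day 0 was the lowest of 8 (13.4% over all genes). The later arrays come from mice given TCPOBOP, and the list's summed signal was at least 442271 in each of them. It was 196728 (control) and 139308 (MET KO + EGFRi) at day 0, so the 14 are not separate from the 17 lower.

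Glutathione transferases were lower in 16 of 19 cases, with a median of -0.38. Besides Gsta2 and Gsta4, Gstt3 passed 2-fold with 3412 and 892.9 (-1.85), and Mgst1, the microsomal enzyme, had 36131.1 and 41941.8 (0.21). Among phase II enzymes and transporters, 20 of 26 were lower with a median of -0.26, but the 2 past 2-fold were higher, the nicotinamide methyltransferase Nnmt with 2554.1 and 12972.9 (2.31) and the exporter Abcc4 with 26.1 and 124.4 (1.01). The control signal of Abcc4 lay below the lower quartile of its array (73.5). The 22 P450 enzymes outside the CAR and PXR list had a median of -0.07, with 13 lower and 9 higher (53.2% and 46.8% over all genes) and 2 at least 2-fold lower (2.18%), of which Cyp2f2, the periportal P450, had 23226.4 and 5912.5 (-1.96).

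Of 27 genes of bile acid synthesis and transport 19 were lower (53.2% over all genes), with a median of -0.10, and 3 were past 2-fold (4.82% over all genes). Cyp7a1, the rate-limiting enzyme of the classical route, had 5047 in the control array and 1895.4 in the MET KO + EGFRi array (difference -1.38, and -1.68 in its other probe set). Cyp7b1, the oxysterol hydroxylase of the alternative route, had 1194.2 and 7233.6 (2.53, standard error 0.30, limma adjusted p = 0.116), and 2.72 in its other probe set. Its arms differed by -0.28, 0.37 and 0.20 on days 1, 2 and 5. The peroxisomal oxidase Acox2 had 2650.4 and 5631.8 (1.07), and Nr0b2, which encodes the repressor SHP, had 783.9 and 1076.5 (0.42).

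Among the receptors, Egfr had 3017.5 in the control array and 4694.3 in the MET KO + EGFRi array (difference 0.63) in its brightest probe set, and 1.84, 1.63, 1.13, 0.08 and 0.05 in the other 5 kept ones, all higher in MET KO + EGFRi. Erbb3, the kinase-poor partner of the family, had 2085.6 and 3745.2 (0.82), and the MET ligand Hgf 508.1 and 317.7 (-0.58). Grb2, the adaptor that links both receptors to RAS, had 363.6 and 929.7 (1.20). The feedback inhibitors went different ways, with the ERK phosphatase Dusp6 at 768.8 and 266.6 (-1.31), Errfi1 at 0.58 and Spry4 at -0.01. The medians were -0.12 over 18 genes of the EGFR family and 0.07 over 12 of the MET pathway.

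ERK response genes were split, with 15 of 25 higher (46.8% over all genes), 5 past 2-fold upward (2.64%) and 2 past it downward (2.18%). Junb, the antiproliferative Btg2 (692 and 1986.9, 1.43), the RNA decay factor Zfp36 (2011.7 and 4265.3, 1.06) and Phlda1 (2394.2 and 5023.6, 1.05) were higher, and Dusp6 and Ier2 (717 and 311.3, -1.04) lower. Myc had 36.4 and 158.6 (1.10), with its control signal below the lower quartile of that array (73.5).

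Ccnd1, the cyclin that carries growth factor signals into the cell cycle, had 4552.6 in the control array and 1231.7 in the MET KO + EGFRi array (difference -1.83), and its other probe sets had -1.61 and -1.42. The difference was -0.98, -0.83 and -0.40 on days 1, 2 and 5. The other G1/S drivers did not share it, with a list median of -0.10, and E2f8 had 79.4 and 317.9 (1.37). DNA replication genes had a median of 0.01 over 17 and 0 past 2-fold (4.82% over all genes). Mitosis genes had -0.08 over 20 with Nusap1 (41.6 and 321.3, 1.80) as the 1 past 2-fold. The control signal of Nusap1 lay below the lower quartile of its array (73.5). Among CDK inhibitors, p53 targets and Gadd45 genes 5 of 21 were at least 2-fold higher (2.64% over all genes) and 0 at least 2-fold lower (2.18%). They were Gadd45g, Trp53inp1 (1316.2 and 4439.4, 1.70), Plk3 (299.9 and 1073.9, 1.63), Btg2 and the CDK inhibitor Cdkn1b (135.7 and 403.2, 1.20). Cdkn1a, which encodes p21, had 684.4 and 1132.1 (0.67) in its brightest probe set and 49.8 and 1244.6 (3.45) in one below the filter.

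Clock genes lay on both sides, with 7 of 22 higher and 15 lower. The output genes Rgs16, Dbp (5907.6 in the control array and 1277.6 in the MET KO + EGFRi array, difference -2.15), Wee1 (1128.7 and 261.6, -1.85) and Usp2 (2955.2 and 1241.5, -1.21) were lower, and Ciart (151.1 and 761.1, 1.91) and Nfil3 (224.7 and 916.3, 1.74) were higher, while the core activator Arntl had 1049.5 and 1053.1 (0.00). The hour of harvest is not given in the labels, and its part was not tested. The differences of Rgs16 and Dbp were -3.63 and -1.42 on day 1 and 0.65 and 0.86 on day 5.

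Of 21 periportal genes 11 were lower (53.2% over all genes), with a median of -0.04, and 5 were at least 2-fold lower (2.18%), among them Igfbp2 (9222.8 and 1494.1, -2.57), the steroid dehydrogenase Hsd17b6 (9038.3 and 1955.4, -2.17) and Cyp2f2. Igfbp2 differed by -0.89, 0.08 and -0.10 on the later days. Pericentral genes were lower in 15 of 19 cases (53.2% over all genes), with a median of -0.27. The 2 at least 2-fold lower (2.18%) were Cyp7a1 and Cyp1a2, and the aryl hydrocarbon receptor Ahr was the 1 at least 2-fold higher, with 1045.6 and 2398.8 (1.15). Hamp, the iron hormone gene, had 32199.3 and 46896.9 (0.54), and its relative Hamp2 had 15566.7 and 4133.3 (-1.90).

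Several housekeeping groups moved little but in one direction. Respiratory chain subunits were lower in 28 of 31 cases (53.2% of all genes were lower by any amount) with a median of -0.27, and proteasome subunits were higher in 26 of 28 (46.8% of all genes) with a median of 0.30. Neither list had a member past 2-fold (4.82% over all genes). In 22 of the 28 proteasome subunits the control array of day 0 was the lowest of all 8 (12.5% over all genes), among them the ATPase subunit Psmc4 with 991.6 against 1803.1 (0.82). The list's summed signal was 82322 (control) and 99368 (MET KO + EGFRi) at day 0. It was at least 104975 in each later array, from mice given TCPOBOP, so the 22 are not separate from the 26 higher. The list's median was -0.10, -0.18 and -0.12 on days 1, 2 and 5. The subunit Psmb1 was not one of the 22 and had 2845.1 and 2379.9 (-0.25). Unfolded protein response genes were higher in 24 of 29, with a median of 0.27, led by Xbp1 (7086.3 and 20509, 1.52) and Chac1 (985.7 and 2218.3, 1.12). The 11 reference genes had a median of -0.09.

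Of 18 sinusoidal endothelial markers 15 were lower (53.2% over all genes) with a median of -0.24, but Lyve1 had 380.6 and 1494.4 (1.79), and the list's summed signal was 19518 and 17465. Stellate, lymphocyte and cholangiocyte markers had medians of -0.01, -0.17 and -0.03 over 14, 7 and 4 genes. Prom1, a cholangiocyte and progenitor marker, had 590.3 and 127.5 (-1.74). Pancreas, adipose and muscle markers had a summed signal of 3560 and 3472.

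How far the day 0 differences were present on other days was read from the arrays of days 1, 2 and 5, which are other pools, treated with TCPOBOP. Of the 320 genes at least 2-fold higher at day 0, 241 (75.3%), 203 (63.4%) and 192 (60%) were higher on days 1, 2 and 5, and 121 (37.8%) on all 3. Over all genes higher by any amount at day 0 these shares were 60.1%, 51.9% and 56.6%, and 21.2% on all 3, so that the share of day 5 lay close to that of all genes. Of the 264 lower genes 200 (75.8%), 149 (56.4%) and 165 (62.5%) were lower on those days and 86 (32.6%) on all 3, against 57.3%, 47.4%, 58.3% and 19.3% over all genes lower by any amount. The arms of days 1, 2 and 5 themselves had 350 (2.89%), 349 (2.88%) and 272 (2.25%) genes past 2-fold upward and 319 (2.63%), 246 (2.03%) and 262 (2.16%) downward. A set of 29 higher genes (9.06% of the 320) and 8 lower ones (3.03% of the 264) was at least 2-fold apart on all 4 days. Of all genes higher or lower by any amount at day 0, 0.652% and 0.202% were at least 2-fold the same way on days 1, 2 and 5. Genes of the set included Mmd2, Nlrp12, Prtn3, Inf2, Lcn2, Mt1 and Socs2 on the higher side and G0s2, Elovl6, Cyp2f2, Car3 and Prom1 on the lower.

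Other genes stood at least 4-fold apart at day 0 with a mean over the later days under 1.5-fold or of the other sign. Cyp7b1 is described above. Socs3 differed by 0.88, 0.10 and 0.60 on days 1, 2 and 5. Junb was still more than 2-fold apart on day 1, with 1.17, and had 0.06 and -0.33 on days 2 and 5. Rtp4 had -0.23 and -0.74 on days 1 and 2 and was more than 2-fold apart the other way on day 5 (-1.21, from signals of 2224 and 918.1). The basement membrane collagen Col4a1 had 209.2 in the control array and 1395.5 in the MET KO + EGFRi array (difference 2.39, and 1.16 in its other probe set), with 0.61, -0.27 and -0.38 on the later days, and its control array of day 0 lay below the 754.5 to 1096.1 of the later controls. Acpp, an acid phosphatase, had 111.8 and 806.9 (2.26), then 1.41, -1.58 and 0.38. Rgs3 differed by -0.31, 0.09 and -0.40 later, and Kcnk5 by -0.99, -0.40 and 0.01.

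**Figure D5:**
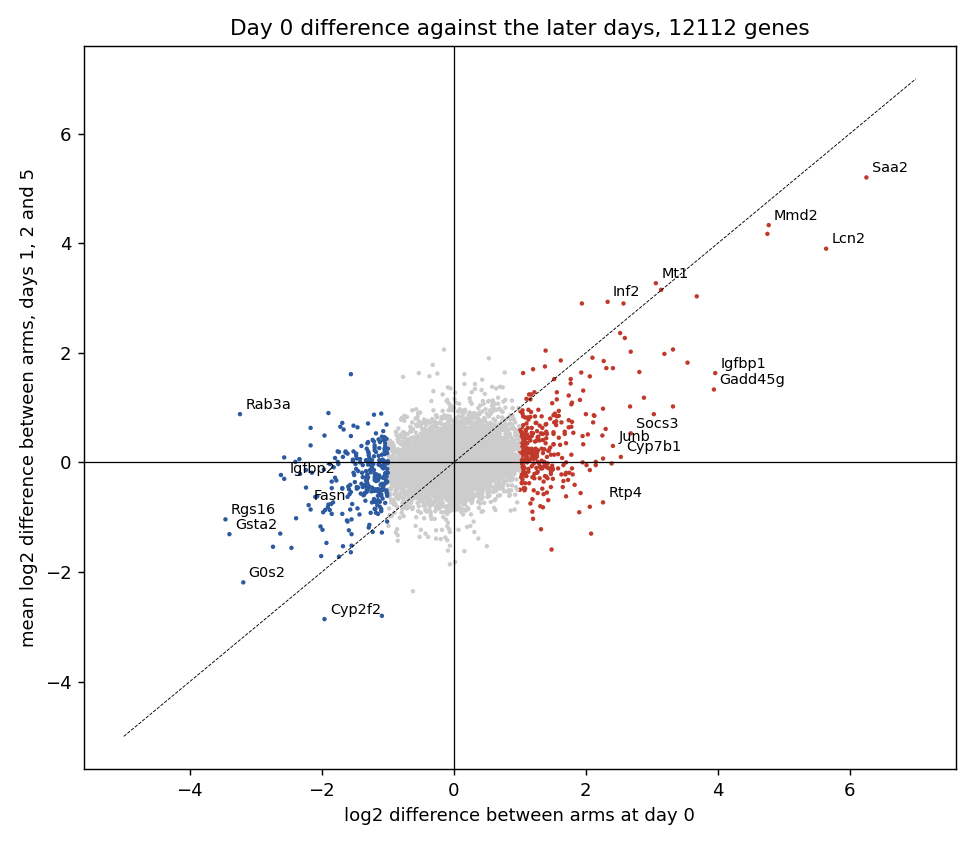
Difference between the arms at day 0 (horizontal axis) against the mean difference of days 1, 2 and 5 (vertical axis) for 12112 genes, both on the log2(signal + 71) scale, with genes past 2-fold at day 0 in red (higher) or blue (lower). Mmd2 (4.77 at day 0 and 4.33 later), Mt1 (3.06 and 3.27) and Inf2 (2.33 and 2.93) lie near the dashed line of equal differences. Saa2 (6.25 and 5.20) and G0s2 (-3.19 and -2.19) lie farther from it, and Cyp7b1, Socs3 and Rtp4 have later means of 0.10, 0.53 and -0.73.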

How the data were processed

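The deposited intensity values, 1 MAS5 signal per probe set and array on a linear scale, were scaled by the authors so that every array has the same trimmed mean, from the values and per the submitters' processing notes. The version of MAS5 and detection calls are not given in the sources used here. Of 45101 probe sets 64 controls were left out, and of the other 45037 the platform table gave 34945 1 gene, 932 several and 9160 none. Log2(signal + 71) was taken. Each gene took the brightest of its probe sets on average, and the 12112 of 18193 genes whose mean log2 value reached 8.24, the probe sets' median, were kept.

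limma 3.58.1 (R 4.3.3) fitted day, arm and arm by TCPOBOP with a variance trend and 2 residual degrees of freedom, with Benjamini-Hochberg adjustment over the 12112 genes. Simulated arrays had independent normal noise with each gene's fitted SD, and the arms differed only at day 0, in the changed genes. Recovery in the real arrays, where true change of the arm difference over days 1, 2 and 5 counts as error, can differ. In 10 simulations with 200 changed genes each, limma recovered 0.6, 10.6, 86.4 and 99% of genes changed 1.5-, 2-, 4- and 8-fold, with 13% of calls false, and the test of day 0 against later days 0.8, 4.6, 74.6 and 97.6%, with 12.2% false. That test and the interferon motif were added after the data were seen. No p was computed within the 2 arrays, and p-values reflect pools of different days, not animals.

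There were 53 gene lists, 52 with 3 or more kept members. The comparison, its gene lists and the rule for naming genes were chosen with earlier results of these data known. Named were the 15 largest increases and decreases among genes at or above their array's upper quartile in 1 of the arms, up to 6 members of each list and the largest the other way, the 8 smallest limma p in each direction, 16 genes always read (such as Met, Egfr and Ccnd1), up to 6 genes each way that passed from the lower to the upper quartile or had all of 2 or more probe sets past 2-fold, and up to 6 each way at least 4-fold apart at day 0 with a later mean under 1.5-fold or the other way. Proteins are not shown.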

Additional observations from a re-analysis of the deposited data

Results flagged for a closer look

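Differences that had another sign on a later day were looked for among the 325 named genes and the gene lists. The interferon-stimulated genes had a median difference between the arms of 0.99 at day 0 and of -0.30 on day 5; the difference between these medians was not tested. Of 78 named genes at least 2-fold higher at day 0, 6 were at least 2-fold lower on a later day, and of 55 at least 2-fold lower, 4 were at least 2-fold higher on one. Of all 320 genes at least 2-fold higher at day 0, 3.75%, 4.38% and 5.62% were at least 2-fold lower on days 1, 2 and 5. Of the 264 lower ones, 5.3%, 5.68% and 4.17% were at least 2-fold higher on those days. Some genes were named because their later mean was small or of the other sign, so the counts among named genes partly follow from the naming rule. None of the 10 named genes passed limma's test of day 0 against the mean of the later days after adjustment.

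Rtp4 had 2.26 at day 0 and -1.21 on day 5 (limma adjusted p = 0.568). Oasl2, also interferon-stimulated, had 1.34 and, on day 5, -1.20 (adjusted p = 0.999). Acpp had 2.26 and, on day 2, -1.58, with 1.41 on day 1 (0.999). The glycogen targeting subunit Ppp1r3c had 1.32 at day 0, -2.40 on day 1 and -1.20 on day 5 (0.999), with day 1 signals of 728.2 for control and 80 for MET KO + EGFRi. The complement protein gene C2 had 1.13 at day 0, 1.40 on day 2 and -1.44 on day 5 (0.999), and the mitosis gene Nusap1 had 1.80 at day 0 and -1.12 on day 2 (0.999).

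Rab3a had -3.24 at day 0 and 2.47 on day 2, with day 2 signals of 1513.6 for control and 8721.4 for MET KO + EGFRi (limma adjusted p = 0.794). Phgdh had -2.63 at day 0 and 1.28 on day 2 (0.999), and its other days had -2.84 and -2.34. The sign changes of Rab3a and Phgdh rest on the brightest probe set alone. The other kept probe set of Phgdh had day 2 signals of 288.5 for control and 308.1 for MET KO + EGFRi. The weak probe set of Rab3a differed by 1.74 at day 0. Maz had -2.24 at day 0, 1.5 on day 2 and -1.76 on day 5 (0.999). The clock output gene Usp2 had -1.21 at day 0 and 1.62 on day 5 (0.785).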

How the results depend on the processing

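No paired analysis was possible because each group has 1 array and the labels carry no replicate numbers. Of the differences of 325 named genes under the alternatives, 2373 moved by less than 1 limma standard error and 102 by more. Of the list medians 386 moved by less than the SD of their later medians and 28 by more, and 2 others were reversed in sign. The median of the pancreas, adipose and muscle markers was 0.14 without the filter (-0.28 with it), and that of the CDK inhibitor and p53 list was -0.03 with a filter at the upper quartile (0.24 otherwise); the cause was not tested. The 320 higher and 264 lower genes became 183 and 141 with 238, the median signal, as pseudocount, and 394 and 387 with no pseudocount. They became 543 and 560 without the filter, 184 and 128 with a filter at the upper quartile, and 901 and 990 at 1.5-fold or 90 and 68 at 3-fold. Averaging all probe sets of a gene gave 210 higher and 176 lower. The share that kept its direction on all later days, 37.8% and 32.6%, was 46.4% and 39% with the larger pseudocount, 32% and 23.8% without the filter, 46.7% and 38.3% with the upper quartile filter, and 47.1% for higher genes with averaged probe sets. limma called 1 gene higher with the larger pseudocount or with no variance trend, and 0 without the filter, with averaged probe sets or without day 2. It called 10 higher and 2 lower without day 1, 27 and 10 without day 5, and 50 and 20 where 1 arm difference was shared by all 4 days, an average over days and no longer a day 0 difference. Mmd2 was called in 10 of 13 alternatives (adjusted p 4.07e-05 to 0.135) and Nlrp12 in 8 (0.00572 to 0.243). Weak genes are limited by background, since no detection calls were used.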
